A study of Rattus norvegicus with 6 samples.

Results

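The axon guidance ligands and receptors described here are the semaphorins, their plexin and neuropilin receptors, the ephrins and the Eph receptors. They were chosen by symbol alone, as every gene of the files whose symbol begins with Sema, Plxna, Plxnb, Plxnc, Plxnd, Efna, Efnb, Epha or Ephb, together with Nrp1 and Nrp2. This gave 53 of 25629 genes, made up of 20 semaphorins, 11 plexins and neuropilins, 8 ephrins and 14 Eph receptors. The nuclei came from the nucleus accumbens, a part of the ventral striatum, of Sprague-Dawley rats of both sexes at 90 to 120 days of age. All rats, controls included, had taken heroin by self-administration, over 7 days on an FR1 schedule, 4 days on FR3, a progressive ratio test on day 12 and FR3 again on days 13 and 14. A rat then received saline or naloxone, an antagonist of opioid receptors, and was killed 1 hour later. Single-nucleus RNA sequencing gave 3 saline libraries (replicates 1 to 3) and 3 naloxone libraries (replicates 4 to 6) from 12 rats, 6 male and 6 female, with male and female tissue pooled in each library. No group without heroin was analysed here, and p-values measure the spread between these pooled libraries.

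Semaphorins and ephrins are cues that steer growing axons, and in the adult brain they also act at synapses, on glia and on vessels. Most secreted class 3 semaphorins bind a neuropilin, which works together with a plexin that passes the signal on, while membrane-bound semaphorins mostly bind plexins directly. Ephrins are held at the cell surface, by a lipid anchor in the A class and by a transmembrane stretch in the B class, and signal by contact to Eph receptor tyrosine kinases.

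The 6 libraries held 55739350 to 76272798 unique molecular identifiers (UMIs, counted RNA molecules) each. The labels speak of 44592 nuclei, the files hold 64260 barcodes, 61609 passed the filter and 58960 were used after removal of called doublets. Any 2 libraries shared 19 to 45 barcodes (0.235% to 0.408% of the smaller library). Clusters formed without the guidance genes were named by marker genes, and 41793 nuclei (70.9%) fell into 14 named classes. These were Drd1-like, Drd2-like and eccentric-like spiny neurons, Chst9-like and Drd3 island-like neurons, and cholinergic-like and somatostatin-like interneurons. The others were astrocyte-like nuclei, nuclei like oligodendrocytes, their precursors and committed precursors, and microglia-like, endothelial-like and mural-like nuclei. The mural-like class had 13 nuclei in saline replicate 1 and was not tested, which left 13 classes. Another 7047 nuclei lay in clusters with markers of several cell types, and 10120 in clusters left unnamed. Both entered the sums over all nuclei but no class. Tac1, Chat and Slc18a3 were not found in the files, so the Drd1-like and cholinergic-like names rest on other markers. Levels are counts per 1000000 UMIs of the class in a library (CPM), given as mean ± SD over the 6 libraries unless stated, and are compared between classes for 1 gene, not between genes.

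Promoters of 3 receptors named in later results are shown first. Epha7 had the smallest p of the members over all nuclei after naloxone, and Ephb1 and Plxnb3 were at their highest in committed precursor-like nuclei. Of the 53 members, 43 had an entry in RefSeq's promoter table, whose build is GRCr8, whereas the counts were made on mRatBN7.2. Epha4, Sema4d and Sema5a were also chosen for display but had no entry. Epha4 was the only member called by edgeR within a class after naloxone. Each sequence is the 250 bases before the annotated start, 5′ to 3′ on the gene's strand, and capitals mark a GC box (GGGCGG) or a SOX site (ACAANG, where N is any base) on either strand.
Epha7, chr5:47771643-47771892, plus strand: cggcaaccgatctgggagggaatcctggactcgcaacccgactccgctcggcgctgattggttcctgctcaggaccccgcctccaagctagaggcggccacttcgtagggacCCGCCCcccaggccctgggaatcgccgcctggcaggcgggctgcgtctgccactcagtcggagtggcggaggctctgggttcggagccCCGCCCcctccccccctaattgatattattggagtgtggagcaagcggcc
Ephb1, chr8:111823760-111824009, minus strand: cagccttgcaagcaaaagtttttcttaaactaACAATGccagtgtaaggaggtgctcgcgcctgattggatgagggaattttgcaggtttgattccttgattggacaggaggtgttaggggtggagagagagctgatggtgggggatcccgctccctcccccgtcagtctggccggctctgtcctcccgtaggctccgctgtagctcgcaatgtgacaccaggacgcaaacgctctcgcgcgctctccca
Plxnb3, chrX:156646624-156646873, plus strand: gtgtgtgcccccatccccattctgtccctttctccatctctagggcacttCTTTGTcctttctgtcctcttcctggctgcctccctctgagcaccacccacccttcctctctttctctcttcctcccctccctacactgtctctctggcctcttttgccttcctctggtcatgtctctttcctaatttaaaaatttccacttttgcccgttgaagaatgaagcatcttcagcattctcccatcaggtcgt
The Epha7 window held GC boxes that begin 138 and 50 bases before the start, and 67.6% of its bases were G or C. A GC box was present in 53.5% of the 43 member promoters and in 30.5% of all 33469 promoters of the table. The median share of G and C was 61.2% and 51.2%. No filter by kind of gene was applied to the table, so the members and all promoters may differ in kind. The Ephb1 and Plxnb3 windows held a SOX site beginning 218 and 200 bases before the start, a motif found in 32.6% of member promoters and 36.9% of all.

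Of the 53 genes, 45 reached a mean of 10 CPM in at least 1 of the 13 classes, and 9 did so in every class. The 8 that reached it in none were 2 semaphorins, 4 ephrins and 2 Eph receptors. For 21 the highest class stood apart, with its lowest library above the highest library of the next class. The same count was not made over all genes. Committed precursor-like nuclei were the highest class for 9 genes, endothelial-like and somatostatin-like nuclei for 8 each, and Drd3 island-like neurons for 5. These counts take in genes under 10 CPM in every class. Among them were Efna2 in committed precursor-like nuclei (3 UMIs), Efna4 in endothelial-like nuclei (2 UMIs), and Epha1 and Efnb1 in Drd3 island-like neurons. Endothelial-like nuclei numbered 29 to 87 in a library, so that 3 UMIs amount to 24.3 to 63.9 CPM there.

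Among the semaphorins, Sema3g, a secreted class 3 member known from vessels, stood at 64.3 ± 13.8 CPM in endothelial-like nuclei, from 42.6 to 78.9 CPM over the libraries, on 35 UMIs. The next class, somatostatin-like interneurons, had 2.48 ± 2.29 CPM, and the ranges were separate. Sema7a, a lipid-anchored ligand of plexin C1, was at 136 ± 31.3 CPM in endothelial-like nuclei against 21.0 ± 3.96 CPM in oligodendrocyte-like nuclei. Both ligands were highest in the vascular class of the 13. Endothelial-like nuclei carried their own 5 markers at a summed 5993 to 7837 CPM in saline and 4558 to 6323 CPM in naloxone libraries. They also carried the Drd1-like list at 2045 to 3237 and 2465 to 3119 CPM, the general spiny neuron list at 1704 to 2260 and 1447 to 2699 CPM, the oligodendrocyte list at 1077 to 2094 and 1176 to 2635 CPM, and the mural list at 333.5 to 1928 and 296 to 889 CPM, with no marker at 0. In Drd1-like neurons themselves the Drd1-like list summed to 203.3 to 232.8 CPM in saline and 195.3 to 247.2 CPM in naloxone libraries. The part of these transcripts in endothelial-like nuclei was not tested.

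Committed precursor-like nuclei, the stage between precursors and myelin-forming cells, had the highest level of Sema5a, a transmembrane semaphorin. The 6 libraries ranged from 1472 CPM in saline replicate 3 to 1966 CPM in naloxone replicate 6, and all lay above precursor-like nuclei (641 ± 71.9 CPM). Sema4d, a transmembrane ligand of plexin B1, was at 787 ± 188 CPM there and at 237 ± 32.1 CPM in oligodendrocyte-like nuclei. Sema3e, a secreted ligand of plexin D1, was at 721 ± 133 CPM there against 367 ± 55.7 CPM in oligodendrocyte-like nuclei. All 3 genes had separate ranges. The class carried the 6 oligodendrocyte markers at a summed 8494 to 12380 CPM in saline and 8375 to 12150 CPM in naloxone libraries, none at 0, and their part was not tested.

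Microglia-like nuclei led for Sema4a, a transmembrane member, at 182 ± 31.6 CPM against 55.4 ± 6.37 CPM in astrocyte-like nuclei. Sema4c was also highest there, at 55.3 ± 9.33 CPM, but overlapped with committed precursor-like nuclei at 27.5 ± 15.7 CPM. Microglia-like nuclei also carried the 6 astrocyte markers, none at 0, at a summed 1332 to 1707 CPM in saline and 1379 to 1544 CPM in naloxone libraries, and the part of these transcripts was not tested. Among semaphorins with more than 3 UMIs in their lowest class, Sema6b and Sema4f were the most evenly spread. Each was highest in somatostatin-like nuclei, Sema6b at 11.2 to 22.9 CPM over the libraries and Sema4f at 32.7 ± 6.91 CPM. That rule left out Sema4g, at 25.6 CPM in cholinergic-like and 3.09 CPM in endothelial-like nuclei, its highest and lowest classes.

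**Figure D1:**
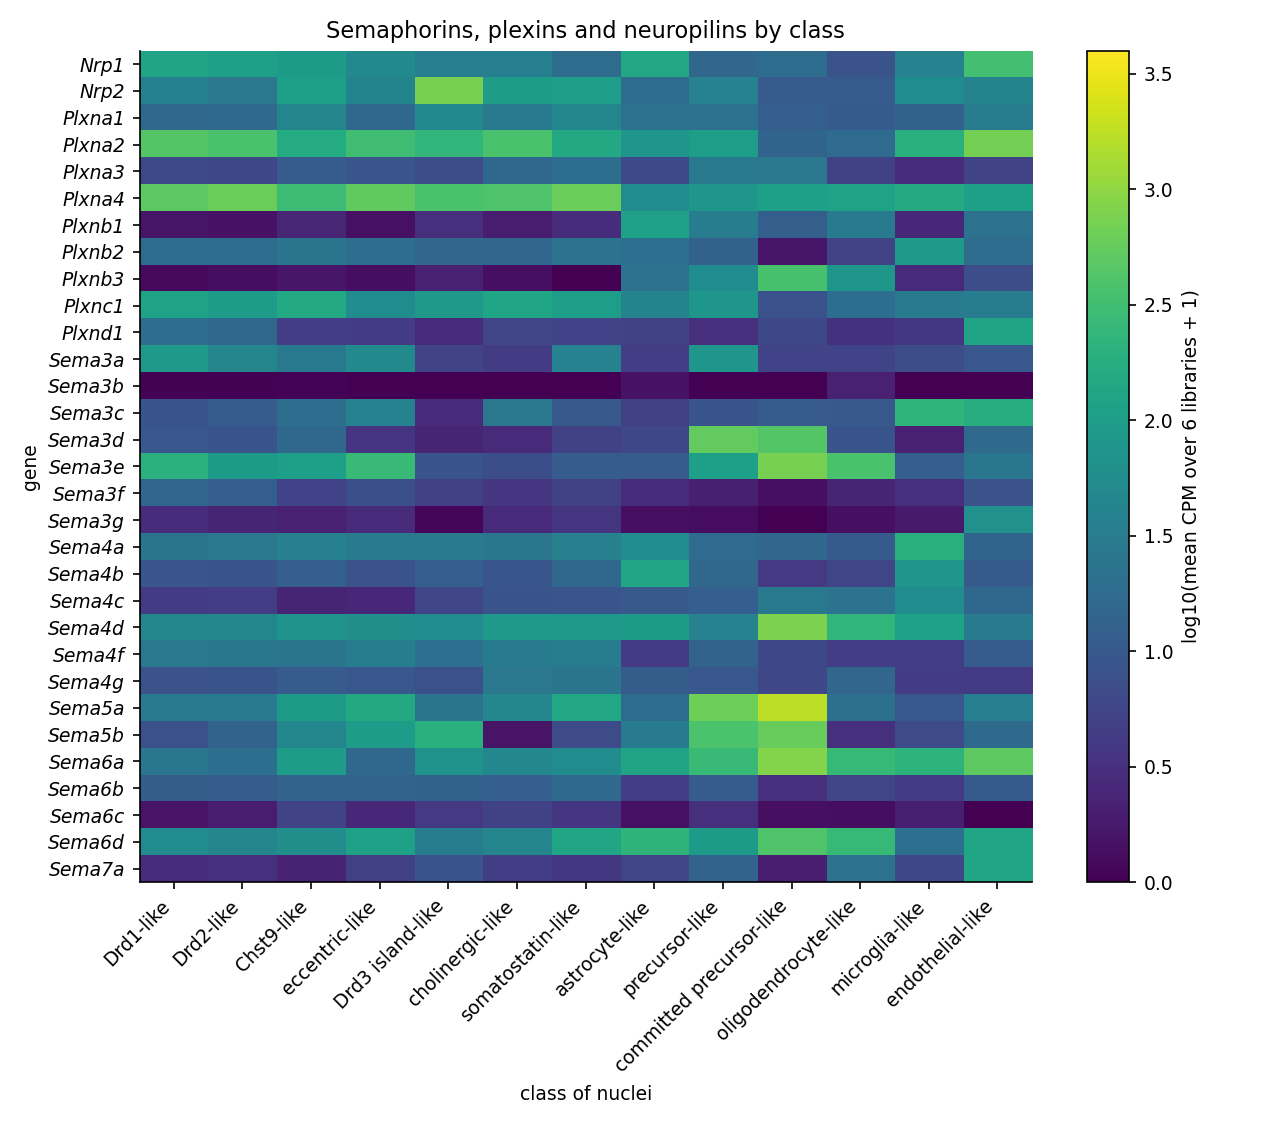
Colour gives log10 of the mean CPM over 6 libraries plus 1 for each semaphorin, plexin and neuropilin (rows) in the 13 tested classes (columns), to be read along a row. Sema5a is brightest in committed precursor-like nuclei (1738 CPM) and Nrp2 in Drd3 island-like nuclei (737 CPM).

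Of the semaphorin receptors, Nrp2, the neuropilin that binds Sema3c and Sema3f, was at 721, 714 and 730 CPM in saline and 725, 789 and 743 CPM in naloxone libraries of Drd3 island-like neurons. All 6 values lay above every other tested class, of which the next was the Chst9-like class at 106 ± 14.9 CPM, a 6.94-fold ratio. Nrp1, which binds Sema3a and vascular endothelial growth factor, had its highest mean in endothelial-like nuclei but ran there from 98.7 CPM in naloxone replicate 5 to 515 CPM in naloxone replicate 6. Its order against astrocyte-like nuclei (139 ± 7.21 CPM) was therefore within the spread.

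The B plexins, receptors of class 4 semaphorins among others, were each highest in a different glial class, with separate ranges. Plxnb1 was at 114 ± 14.9 CPM in astrocyte-like nuclei against 31.1 ± 5.34 CPM in precursor-like nuclei. Plxnb2 was at 85.9 ± 7.83 CPM in microglia-like nuclei against 23.4 ± 3.01 CPM in Chst9-like neurons. Plxnb3 was at 359 ± 64.7 CPM in committed precursor-like nuclei, from 279 to 431 CPM, against 79.7 ± 12.3 CPM in oligodendrocyte-like nuclei. Plxnd1, a vascular receptor of Sema3e, was at 127 ± 37.7 CPM in endothelial-like nuclei against 18.6 ± 2.09 CPM in Drd1-like neurons. Plxna1 and Plxna4, which signal with neuropilins, were the most evenly spread, and Plxna4 still ran from 53.0 CPM in astrocyte-like to 621 ± 50.2 CPM in somatostatin-like nuclei.

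None of the 8 ephrins had a highest class apart from the second, and Efna2, Efna3, Efna4 and Efnb1 reached 10 CPM in no class. Efna5, an A-class ligand, was at 657 ± 52.3 CPM in somatostatin-like and 519 ± 95.3 CPM in cholinergic-like nuclei, which overlapped, and at 7.73 ± 3.78 CPM in oligodendrocyte-like nuclei. Efnb2, the B-class ligand known from arteries, was at 160 ± 8.59 CPM in Drd1-like and 147 ± 8.84 CPM in Drd2-like neurons. Its levels in microglia-like (159 ± 53.0 CPM), Drd3 island-like (149.6 ± 20.15 CPM) and endothelial-like nuclei (125 ± 50.3 CPM) overlapped with both. Efna1 was highest in oligodendrocyte-like nuclei (19.2 ± 2.70 CPM) and Efnb3 in Chst9-like neurons (21.7 ± 2.75 CPM), each overlapping with the next class.

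Of the Eph receptors, Epha3, which binds A-class ephrins, was at 2060, 1988 and 2332 CPM in saline and 2663, 2398 and 2696 CPM in naloxone libraries of Drd3 island-like neurons. The next tested class, Drd2-like neurons, had 282 ± 22.0 CPM, an 8.35-fold ratio, and no library overlapped. Ephb1, a receptor of B-class ephrins, was at 993 ± 186 CPM in committed precursor-like nuclei, from 757 to 1258 CPM. It followed at 431 ± 42.5 CPM in oligodendrocyte-like nuclei and 396 ± 30.8 CPM in Drd1-like neurons, which overlapped with each other. Ephb3 was highest in astrocyte-like nuclei, at 80.1 ± 11.6 CPM against 30.9 ± 11.7 CPM in microglia-like nuclei.

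Epha7 was highest in Drd1-like neurons (291 ± 36.2 CPM) and next in Drd2-like neurons (210 ± 26.4 CPM), with separate ranges. Epha4, a receptor that binds ephrins of both classes, stood at overlapping levels in somatostatin-like (330.0 ± 20.2 CPM), Drd2-like (329 ± 14.4 CPM) and Drd1-like nuclei (322 ± 10.2 CPM), and was lower in Chst9-like neurons (27.9 ± 5.19 CPM). Epha5 was highest in somatostatin-like nuclei (1103 ± 68.9 CPM), overlapping with cholinergic-like nuclei (813 ± 218 CPM). Ephb4, the receptor of ephrin-B2 known from veins, had only 15 UMIs in endothelial-like nuclei, and Ephb6, which lacks kinase activity, did not exceed 13.9 ± 3.45 CPM in any tested class. When nuclei were instead assigned one by one from their own markers, levels in the highest class were lower, for example 609 CPM for Epha3 and 192 CPM for Nrp2 in Drd3 island-like, 854 CPM for Sema5a in committed precursor-like, 70.4 CPM for Sema4a in microglia-like and 38.9 CPM for Sema7a in endothelial-like nuclei. With called doublets kept, Sema5a was at 1030.0 CPM and Plxnb3 at 229.5 CPM in committed precursor-like nuclei.

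**Figure D2:**
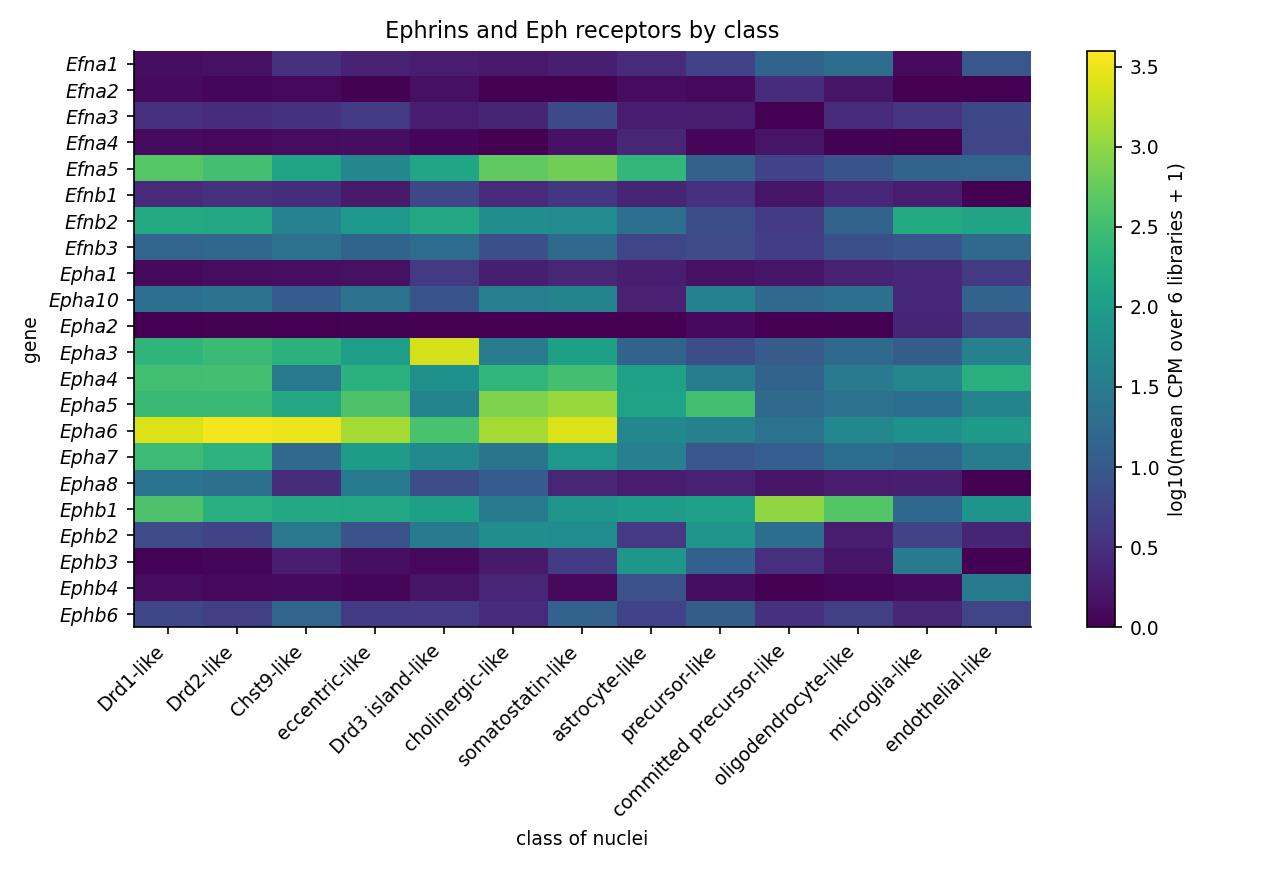
Colour gives log10 of the mean CPM over 6 libraries plus 1 for each ephrin and Eph receptor (rows) in the 13 tested classes (columns). Epha3 is brightest in Drd3 island-like nuclei (2356 CPM) and Ephb1 in committed precursor-like nuclei (993 CPM).

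Pairs of classes were compared within libraries by edgeR's quasi-likelihood test with library as a block and Benjamini-Hochberg adjustment over all genes (threshold 0.05). Drd1-like and Drd2-like neurons were named for the direct and indirect pathway types of the striatum. The 5 Drd1 markers in the files summed to 221 CPM in Drd1-like and 9.75 CPM in Drd2-like neurons. They summed to 237 CPM in astrocyte-like and 254.5 CPM in Drd3 island-like nuclei, and none was among the 10 leading genes of a Drd1-like cluster. Between Drd1-like and Drd2-like neurons 21 of 43 tested members were called, where 23% of all genes were called (11.6% higher and 11.4% lower). Of these, 15 were higher and 6 lower in Drd1-like neurons, and the median log2 difference was 0.09 for the members and -0.00 for all genes. Ephb1 was at 396 ± 30.8 CPM in Drd1-like and 183 ± 19.6 CPM in Drd2-like neurons (log2 difference 1.11, SE 0.03, edgeR adjusted p = 4.45e-17). The secreted ligands Sema3e (199 against 90.2 CPM, log2 difference 1.14) and Sema3a (88.6 against 42.1 CPM, 1.08) went the same way, all 3 in 6 of 6 libraries. Lower in Drd1-like neurons in 6 of 6 libraries were Sema5b (6.91 against 13.2 CPM, -0.96), Epha6 (2589 against 3426 CPM, -0.41) and Plxna4 (485 against 620 CPM, -0.36).

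Chst9-like neurons differed from Drd1-like neurons in 39 of 45 tested members, 19 higher and 20 lower, where 55.8% of all genes were called (28.8% higher and 26.9% lower), and the median log2 difference was 0.02 for the members and 0.03 for all genes. The general spiny neuron list summed to 1207 CPM in Chst9-like nuclei, against 4675 CPM in Drd1-like, 5375 CPM in Drd2-like and 3821 CPM in eccentric-like nuclei. It summed to 1079 CPM in astrocyte-like nuclei, so the Chst9-like name rests on its own markers. The most negative differences of the members between Chst9-like and Drd1-like neurons were in A-class Eph receptors. Epha7 was at 16.2 ± 3.15 CPM in Chst9-like and 291 ± 36.2 CPM in Drd1-like neurons (log2 difference -4.34, SE 0.07, edgeR adjusted p = 1.2e-22), Epha4 at 27.9 ± 5.19 and 322 ± 10.2 CPM (-3.71), and Epha8 at 1.97 ± 0.875 and 22.7 ± 2.60 CPM (-3.64). Higher in Chst9-like neurons in 6 of 6 libraries were Sema5b (43.7 against 6.91 CPM, 2.50), Ephb2, a B-class receptor (26.6 against 5.85 CPM, 2.01), and Sema6a (97.3 against 24.7 CPM, 1.80).

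Between precursor-like and oligodendrocyte-like nuclei 34 of 40 tested members differed, 21 higher and 13 lower in precursors, where 68.4% of all genes were called (33.9% higher and 34.5% lower), and the median log2 difference was 0.77 for the members and -0.05 for all genes. Sema5b was at 378 ± 21.6 CPM in precursor-like and 2.10 ± 1.28 CPM in oligodendrocyte-like nuclei (log2 difference 7.57, SE 0.14, edgeR adjusted p = 1.18e-22). Ephb2 (75.6 against 0.869 CPM, 6.32) and Sema3d (544 against 7.52 CPM, 6.24) were also higher in precursors. Sema4d (38.6 against 237 CPM, -2.55), Efna1 (4.34 against 19.2 CPM, -2.10) and Ephb1 (116 against 431 CPM, -1.83) were lower, and all 6 directions held in 6 of 6 libraries. The oligodendrocyte-like class joins 3 clusters, and their shares differed between treatment groups and among the naloxone libraries. A cluster of 3481 nuclei whose leading genes include Gpd1, Aspa and Mog held 0.959%, 1.73% and 2.50% of the class in saline replicates 1, 2 and 3, and 43.8%, 91.2% and 47.0% in naloxone replicates 4, 5 and 6. The others were a cluster of 6598 nuclei led by C1h10orf90, Opalin and Ermn (72.7% from saline libraries) and a cluster of 1542 nuclei led by Rasgrp3 (64.5%), which together held most nuclei of the class in all libraries but naloxone replicate 5.

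Between astrocyte-like and precursor-like nuclei 35 of 40 tested members differed, 14 higher and 21 lower in astrocytes, where 59.8% of all genes were called (31.2% higher and 28.5% lower), and the median log2 difference was -0.46 for the members and 0.04 for all genes. Efna5 was at 241 ± 36.8 CPM in astrocyte-like and 11.5 ± 1.79 CPM in precursor-like nuclei (log2 difference 4.24, SE 0.12, edgeR adjusted p = 1.07e-22). Nrp1 (139 against 14.5 CPM, 3.13) and Sema4b (134 against 15.2 CPM, 2.98) were also higher in astrocytes. Sema3d (4.86 against 544 CPM, -6.93), Sema5a (17.9 against 641 CPM, -5.26) and Epha10 (1.16 against 37.7 CPM, -4.98) were lower, each in 6 of 6 libraries.

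**Figure D3:**
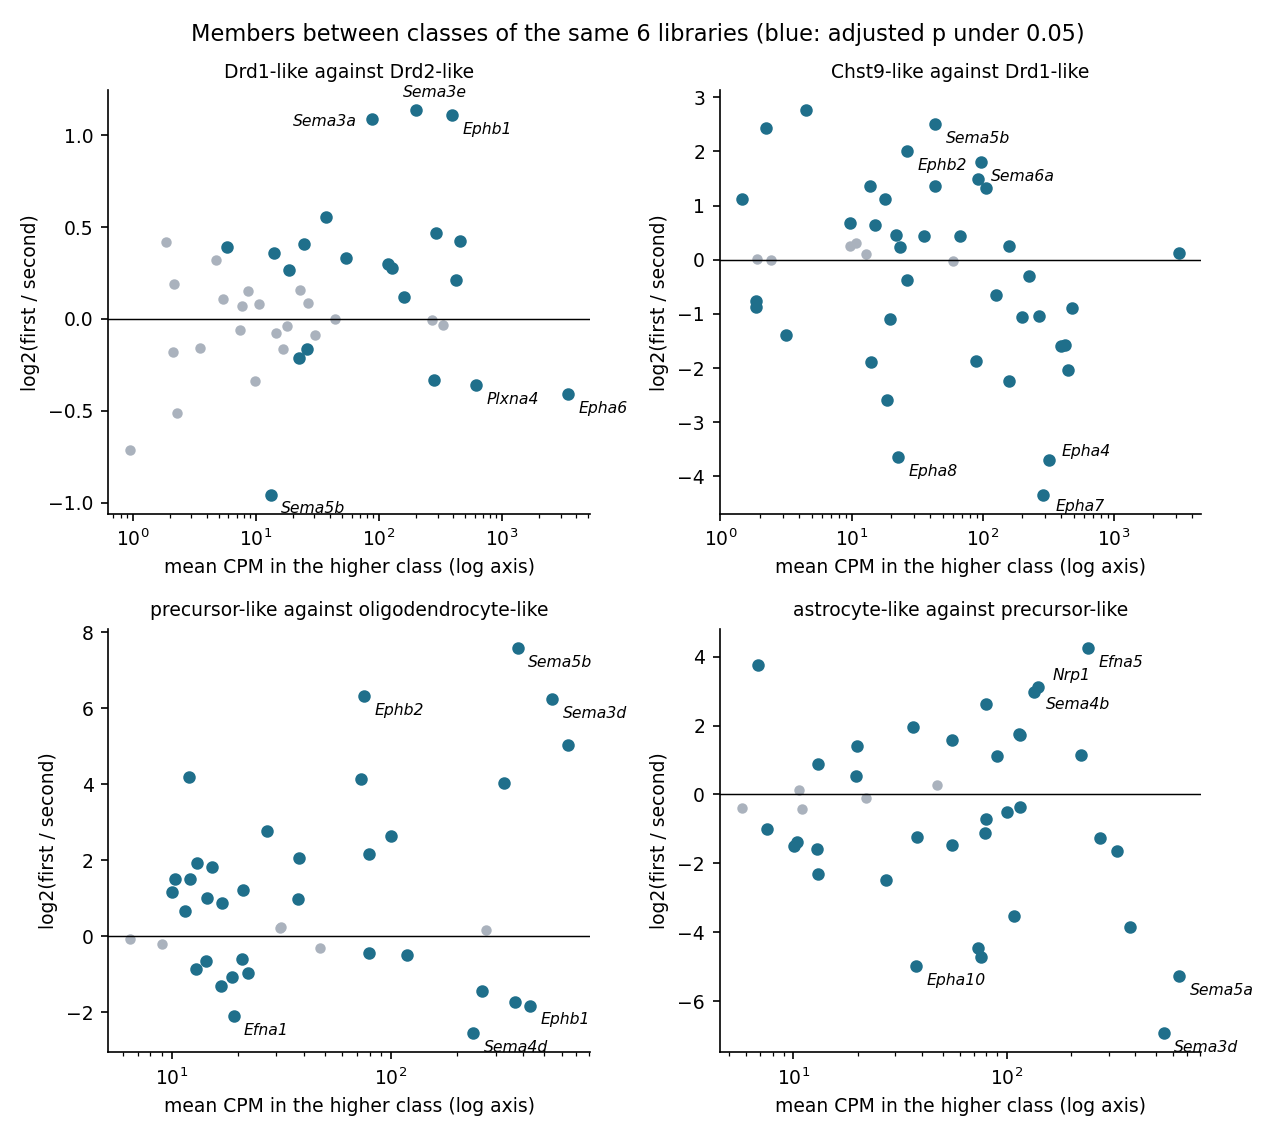
Each point is a tested member in 1 of 4 pairs of classes, with its mean CPM in the higher class on a log axis and its log2 difference (first over second class) on the vertical axis, blue where the adjusted p was under 0.05. Epha4, Epha7 and Epha8 lie lowest among the named members of the Chst9-like against Drd1-like panel, at -3.71, -4.34 and -3.64.

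Naloxone was compared with saline first over all nuclei, where no member of 53 was called by edgeR and 0.0404% of 17338 genes were called. At an unadjusted p under 0.05 there were 9 members (17%, against 14.3% of all genes), and the median log2 change was 0.01 for the members and for all genes. Epha7, a receptor of A-class ephrins, had the smallest p. It stood at 165, 164 and 165 CPM in saline replicates 1, 2 and 3 and at 131, 134 and 133 CPM in naloxone replicates 4, 5 and 6. All naloxone libraries were below all saline libraries, with a log2 difference of -0.32 (SE 0.05, edgeR adjusted p = 0.0707). DESeq2 called 2 members, where it called 2.43% of all genes with an adjusted p, namely Epha7 (adjusted p = 0.000165) and Nrp2, which was at 76.1, 73.4 and 86.7 CPM in saline and 108, 95.1 and 101 CPM in naloxone libraries, without overlap (DESeq2 adjusted p = 0.0145, edgeR adjusted p = 0.144). Drd3 island-like neurons, the highest tested class for Nrp2, were 230 of 7647, 289 of 13676 and 323 of 8948 nuclei in saline replicates 1, 2 and 3. In naloxone replicates 4, 5 and 6 they were 380 of 10260, 473 of 10486 and 317 of 7943 nuclei. The part of these numbers in the Nrp2 result was not tested. In sums over all nuclei, a change in cells of a type and a change in RNA per cell cannot be told apart.

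Within classes, 1 of 374 tests of a member in a class passed, where 0.322% of the tests of all genes over the 13 classes did. It was Epha4 in astrocyte-like nuclei, where 0.913% of all genes were called and 0.199% were called lower. Epha4 was at 127, 154 and 138 CPM in saline replicates 1, 2 and 3 and at 97.8, 90.3 and 83.5 CPM in naloxone replicates 4, 5 and 6. All naloxone libraries were below all saline libraries. The means were 140 ± 13.5 and 90.5 ± 7.17 CPM (SD, n = 3 each) on 1465 UMIs, and Epha4 fell by 0.60 on the log2 scale (SE 0.11, edgeR adjusted p = 0.0219, DESeq2 adjusted p = 0.00588). Omitting saline replicate 2 (edgeR adjusted p = 0.0908), saline replicate 3 (0.0979) or naloxone replicate 6 (0.0821) ended the call, while the log2 difference stayed between -0.53 and -0.67 with each library left out. Assigning nuclei one by one from their markers also ended it, with a log2 difference of -0.35 (adjusted p = 0.476).

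Marker sums in the same astrocyte-like nuclei are given beside this result. The 6 astrocyte markers summed to 9853 to 10360 CPM in saline and 11290 to 11750 CPM in naloxone libraries, without overlap. The 6 microglia markers summed to 27.2 to 33.7 CPM in saline and 36.5 to 43.4 CPM in naloxone libraries, also without overlap. The 5 general neuron markers overlapped, at 231 to 375 CPM in saline and 310.2 to 438 CPM in naloxone libraries, against 7416 CPM in Drd2-like neurons. None of these markers was at 0, and their part in the Epha4 result was not tested. The class joins 2 clusters, and the smaller, led by Slc6a11, held 21.0%, 16.2% and 26.3% of it in saline replicates 1, 2 and 3 and 28.5%, 27.2% and 33.0% in naloxone replicates 4, 5 and 6, without overlap. Within the larger cluster, led by Slc1a2, Epha4 was at 165 ± 13.5 CPM in saline and 113 ± 12.1 CPM in naloxone libraries on 1331 UMIs, without overlap. Within the smaller it was at 45.5 ± 3.87 and 39.0 ± 12.8 CPM on 134 UMIs, with overlap.

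Epha4 was tested in 12 classes and was lower in naloxone libraries in 9, in 2 of them without overlap, and such counts were not made over all genes. In Drd1-like neurons it was at 322 ± 8.56 CPM in saline and 322 ± 13.6 CPM in naloxone libraries, and in Drd2-like neurons at 326 ± 21.9 and 332 ± 3.76 CPM. The groups overlapped in both. In Chst9-like neurons it was at 29.0, 32.6 and 35.2 CPM in saline and 22.5, 25.3 and 23.1 CPM in naloxone libraries, without overlap (log2 difference -0.44, edgeR adjusted p = 0.264). In eccentric-like neurons it was at 211 ± 21.0 and 182 ± 12.0 CPM, with overlap.

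Whether the naloxone effect differed between classes was tested in 1 joint edgeR fit over the 13 classes. No member was called, where 1.28% of all genes were called, and 8 of 47 members had an unadjusted p under 0.05, against 10.2% of all genes. No other tool was run on this fit. Epha4 had the smallest p (F = 2.76, adjusted p = 0.144), followed by Epha3 (F = 2.71, adjusted p = 0.153), and both were called without saline replicate 2 (adjusted p = 0.036 for Epha4 and 0.0351 for Epha3). Contrasts between classes were run only for Epha4 in astrocyte-like nuclei, chosen because of its call on the same values. Of its 12 contrasts with each other class, the one with Drd2-like neurons passed (difference of log2 changes -0.62, edgeR adjusted p = 0.0371). The other 11 did not, among them those with Drd1-like neurons (-0.58, adjusted p = 0.0914) and oligodendrocyte-like nuclei (-0.76, adjusted p = 0.103), and p-values were adjusted over genes within a contrast and not over contrasts.

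**Figure D4:**
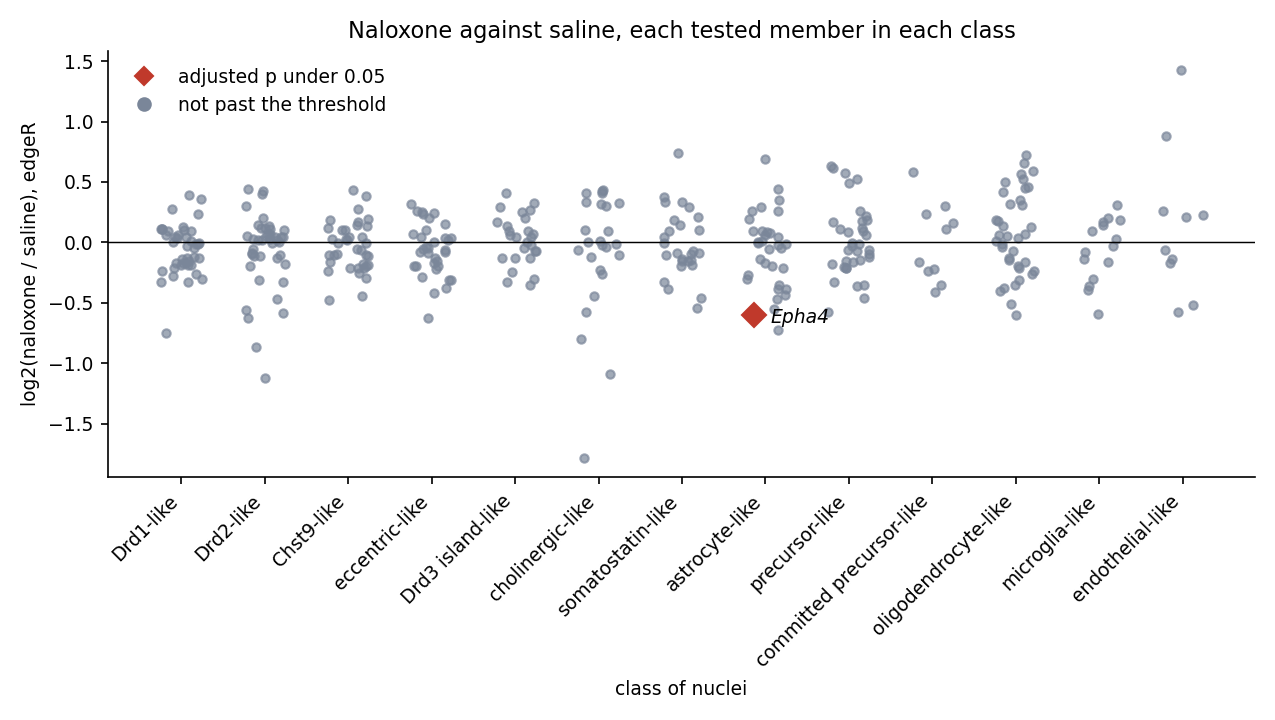
Each point is the log2 change (naloxone over saline, edgeR) of a member tested in a class, spread sideways for visibility. The red diamond, Epha4 in astrocyte-like nuclei at -0.60, has an adjusted p under 0.05.

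Epha7 was lower in naloxone libraries in 9 of the 10 classes in which it was tested, in 3 without overlap. Such counts were not made over all genes. Among other members, Nrp2 was higher in 10 of 11 classes, Sema4d lower in 10 of 12 and Ephb6 lower in 6 of 6. Sema6a and Efnb2 were lower without overlap in 4 classes each. With edgeR and its filter on low counts Epha7 passed in no class. Without the filter edgeR called Epha7 in Drd1-like (log2 difference -0.31, adjusted p = 0.0221) and Drd2-like neurons (-0.32, adjusted p = 0.00875). The classes come from the same 6 libraries and are not independent. In Drd2-like neurons Epha7 was at 227, 235 and 238 CPM in saline and 189, 188 and 181 CPM in naloxone libraries, without overlap (log2 difference -0.31, SE 0.07, edgeR adjusted p = 0.0586, DESeq2 adjusted p = 0.00698). In Drd1-like neurons it was at 303, 316 and 343 CPM in saline and 274, 247 and 262 CPM in naloxone libraries, without overlap (log2 difference -0.30, SE 0.08, edgeR adjusted p = 0.158, DESeq2 adjusted p = 0.0339). In eccentric-like neurons it was at 116, 97.8 and 116 CPM in saline and 96.8, 63.5 and 95.3 CPM in naloxone libraries (log2 difference -0.37, edgeR adjusted p = 0.461). In astrocyte-like nuclei, where Epha4 fell, Epha7 was at 36.7 ± 5.31 and 35.9 ± 2.06 CPM.

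**Figure D5:**
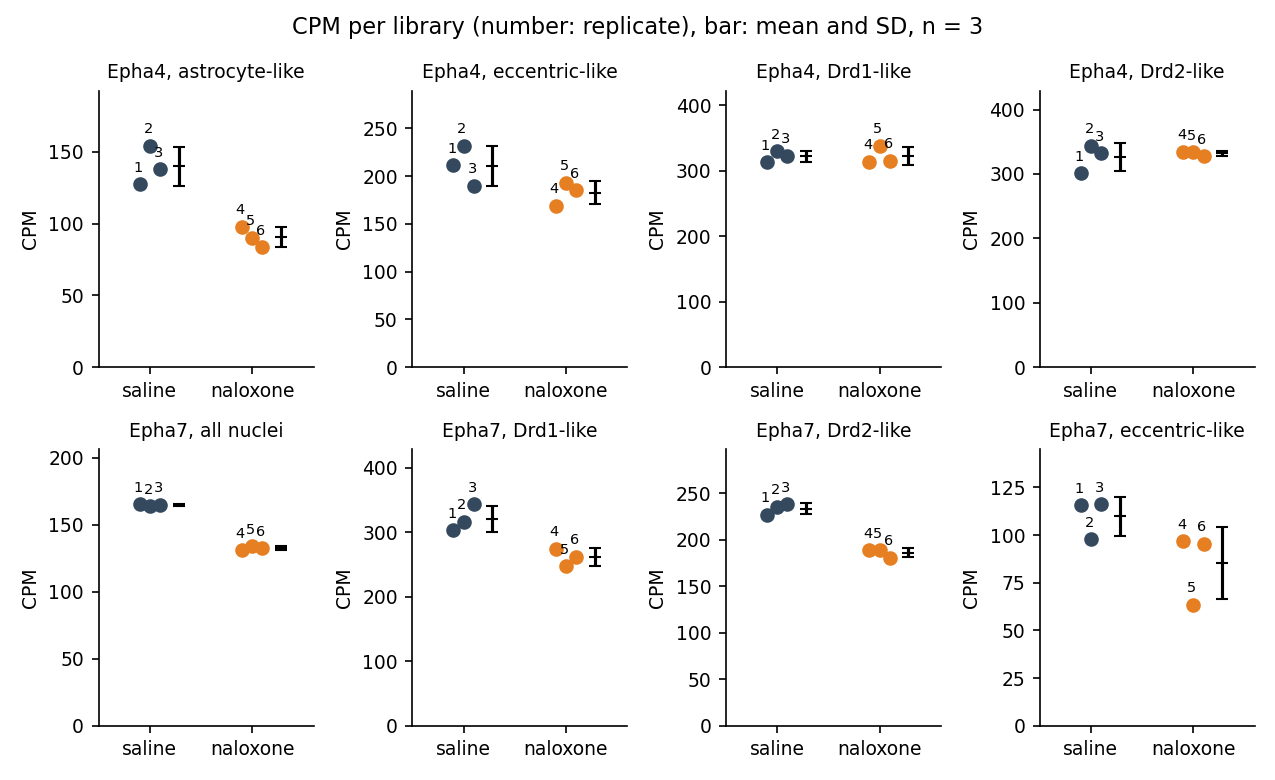
CPM of Epha4 (top) and Epha7 (bottom) in each library, with the replicate number above the point and a bar for mean and SD (n = 3). Saline and naloxone points are apart for Epha4 in astrocyte-like nuclei (127 to 154 against 83.5 to 97.8 CPM) and overlap for Epha4 in Drd1-like, Drd2-like and eccentric-like neurons.

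In the remaining classes the member with the smallest p is given as a value, since none passed with edgeR and its filter on low counts. Without the filter edgeR called 1 of the values below, Epha3 in cholinergic-like nuclei (adjusted p = 9.39e-05). In committed precursor-like nuclei Sema5b was at 509.6, 489 and 414 CPM in saline and 715, 779.5 and 604 CPM in naloxone libraries, without overlap (log2 difference 0.58, SE 0.18, edgeR adjusted p = 0.397). In oligodendrocyte-like nuclei Sema3e was at 325 ± 21.1 and 410 ± 43.4 CPM (0.32, edgeR adjusted p = 0.261). In the largest of the 3 clusters named above, the 1 led by C1h10orf90, Sema3e was at 356 ± 18.5 and 370 ± 39.5 CPM, with overlap. In the cluster with Gpd1 it was at 302 ± 78.0 and 477.5 ± 27.2 CPM, without overlap, on 13 to 56 saline nuclei in a library, and in the cluster led by Rasgrp3 Sema3e was at 196 ± 26.4 and 166 ± 25.5 CPM, with overlap. In Drd3 island-like neurons Epha3 was at 2127 ± 182 and 2586 ± 163 CPM (0.30, edgeR adjusted p = 0.49), and in cholinergic-like nuclei at 48.9 ± 38.2 and 13.7 ± 6.37 CPM on 119 UMIs (-1.78, edgeR adjusted p = 0.944). Saline replicate 3 was highest among the latter, at 92.3 CPM against 34.2 and 20.3 CPM in saline replicates 1 and 2, and without it the log2 difference was -0.94. Plexins had the smallest p in the other classes. Plxna4 was at 55.8 ± 34.6 and 161 ± 46.2 CPM in endothelial-like nuclei on 62 UMIs (edgeR adjusted p = 0.866) and at 182 ± 20.8 and 137 ± 19.9 CPM in microglia-like nuclei (edgeR adjusted p = 0.634). Plxna2 was at 112 ± 7.61 and 87.8 ± 11.1 CPM in precursor-like nuclei (edgeR adjusted p = 0.546), and Plxnc1 at 91.6 ± 10.2 and 115 ± 10.2 CPM in somatostatin-like nuclei (edgeR adjusted p = 0.817).

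The share of all genes called by edgeR was 0.244% in Drd1-like, 0.715% in Drd2-like, 0.0966% in Chst9-like, 0.0861% in eccentric-like, 0.838% in oligodendrocyte-like, 0.226% in precursor-like, 0.0224% in committed precursor-like and 0.226% in microglia-like nuclei, and 0% in the other 4 classes without a call among the members. Over the 13 classes, 43 of 374 tests of a member (11.5%) had an unadjusted p under 0.05, against 9.55% of the tests of all genes. DESeq2 passed 4 tests of a member in a class, from 3 members, where 0.443% of its tests of all genes passed over the classes. These were Epha4 in astrocyte-like nuclei (1.51% of all genes passed there), Epha7 in Drd1-like neurons (1.16%) and Drd2-like neurons (1.94%), and Plxnc1, a receptor of Sema7a, in Drd2-like neurons. Plxnc1 was there at 82.8, 93.0 and 78.5 CPM in saline and 108.5, 101 and 122 CPM in naloxone libraries, without overlap (log2 difference 0.40, DESeq2 adjusted p = 0.0323, edgeR adjusted p = 0.0931).

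Other genes of guidance pathways were read from the same fits. Of 20 genes of other guidance families, none was called over all nuclei (2 had an unadjusted p under 0.05 with edgeR), and the only call in a class was Ntn1, a secreted netrin, which rose from 66.3 to 103 CPM in astrocyte-like nuclei (log2 change 0.69, SE 0.15, edgeR adjusted p = 0.0448). Of 36 genes that act with these receptors in the cytoplasm or as co-receptors, counted by gene identifier and not by symbol, none was called over all nuclei (2 had an unadjusted p under 0.05). The only call in a class was Mical2, an enzyme that takes actin filaments apart, which rose from 285 to 385 CPM in astrocyte-like nuclei (log2 change 0.47, SE 0.10, edgeR adjusted p = 0.0331). In that class the median log2 change was 0.02 for the first list, -0.00 for the second, -0.02 for the members and 0.00 for all genes.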

How the data were processed

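UMI counts per gene and nucleus were deposited by the authors for 6 libraries, per the file headers as raw whole-number counts. Cell Ranger 9.0.1, Seurat 5.2.1, R 4.4.0 and the build mRatBN7.2 are named in the submitters' processing notes. Barcodes under 500 genes or over 5% mitochondrial UMIs were dropped, and nuclei scoring highest against simulated sums of 2 nuclei were removed as doublets at 0.4% per 1000 nuclei (2649 in all). Nuclei were clustered on 3000 variable genes without the members, 40 principal components and 15 neighbours by the Leiden method at resolution 1 (leidenalg 0.10.2, Python 3.11.15). Since the partition depended on the random seed, 20 seeds were run to convergence and the partition of highest quality was taken, a rule chosen without reference to the members after a first clustering proved sensitive to the seed. It held 47 clusters, and the adjusted Rand index of the other 19 partitions to it was 0.834 to 0.987. Clusters were named from marker lists, needing at least 3 enriched markers and 50 nuclei, with thresholds set after the clusters were seen. UMIs were summed per library and class where every library had at least 20 nuclei.

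Sums were tested with edgeR 4.0.16 (R 4.3.3, limma 3.58.1) with TMM scaling and its filter on low counts, and with DESeq2 1.42.0 as an alternative. An SE is the log2 change divided by the square root of F. In simulated counts with log2 shifts of 1 in 200 genes, 79.5% of them were recovered over all nuclei (17338 genes), 72% in astrocyte-like nuclei (11068 genes) and 6.5% in endothelial-like nuclei (2691 genes). Recovery was 47.5% in cholinergic-like and 44% in microglia-like nuclei, and 42.5% in the joint test for shifts in astrocyte-like nuclei alone. False calls numbered 7 over all nuclei and 11 in astrocyte-like nuclei. Shifts under 1, such as those of Epha4 and Epha7, were not simulated. Named members are those called or else of smallest p in each class, the 3 most positive and 3 most negative calls at 10 CPM or more in each class pair, and in each family the 6 highest ratios of first to second class and the 2 lowest of first to last. The ratio of first to last class was taken only where the last class had more than 3 UMIs. Members and lists were chosen with earlier results of these data known. Scaling alternatives, filters, other classes and the omission of each library were tried.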

Additional observations from a re-analysis of the deposited data

Results flagged for a closer look

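The change of Epha4 after naloxone differed between astrocyte-like nuclei and Drd2-like neurons by -0.62 on the log2 scale (edgeR adjusted p = 0.0371 over genes in that contrast), the only one of the 12 contrasts of astrocyte-like nuclei with another class that passed for Epha4. Epha4 was at 140 ± 13.5 and 90.5 ± 7.17 CPM in saline and naloxone libraries of astrocyte-like nuclei, and at 326 ± 21.9 and 332 ± 3.76 CPM in those of Drd2-like neurons (SD, n = 3 each). The contrast was run because of the Epha4 call in astrocyte-like nuclei, on the same values, and its p was not adjusted over the 12 contrasts. The joint test over the 13 classes did not pass for Epha4 (adjusted p = 0.144).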

How the results depend on the processing

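No paired analysis was possible because the replicate numbers, 1 to 6, are not shared between the groups. Over all nuclei 0 members were called by edgeR, 2 by DESeq2, and 0 to 4 with each library left out, the 4 being Sema3c, Epha7, Ephb2 and Nrp2 without naloxone replicate 5. Within classes 1 test of a member passed, against 4 (from 3 members) by DESeq2, 12 (from 11 members) with no filter on low counts, 0 with nuclei assigned one by one from their markers, and 0 to 2 with each library left out. The joint test of class by treatment gave 0 calls, and 0 to 2 with each library left out. Over the 4 class pairs 129 tests passed, from 46 members, and 118 to 136 tests passed under the alternatives. Shares of all genes called were computed for the main fits and, for naloxone against saline, for DESeq2. The counts under the other settings have no such share beside them, so a general rise or fall in calls cannot be told apart. With the partitions ranked 2 and 3 by quality, alternatives chosen after seeing the data, Epha4 in astrocyte-like nuclei kept its call (log2 difference -0.60, edgeR adjusted p = 0.0219 in both). The number of members at 10 CPM or more was 45, and 43 to 45 under the alternatives. No direction reversed among the named members. With called doublets kept, or at Leiden resolution 0.5, no cluster was named endothelial-like, so its results have no value there, and the test of Plxna4 in that class has none with nuclei of at least 1000 genes. At resolution 0.5 the test of Epha7 in eccentric-like neurons has none either. The Drd1-like class held 7625 nuclei, but 2848 with called doublets kept and 2430 with nuclei assigned one by one. The Drd2-like class held 5220, 5203 and 5444 nuclei in the same settings. The class pairs were not rerun with called doublets kept or at resolution 0.5. Depth limits the endothelial-like class most, at 29 to 87 nuclei in a library. The cause of these differences was not tested.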

Other observations

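Unnamed clusters, which did not meet the marker rule of any class and so enter no comparison, also held guidance genes at high levels. A cluster led by Tafa4 (568 nuclei) had Sema3c, a secreted semaphorin, at 599 ± 62.2 CPM, from 531 to 686 CPM over the 6 libraries, and a cluster whose first leading gene with a symbol is Srrm4 (1163 nuclei) had it at 334 ± 67.8 CPM. Sema3c was among the 10 leading genes of both clusters, though it was not used in the clustering. The highest tested class, microglia-like nuclei, had Sema3c at 225 ± 51.0 CPM. Efna5, an A-class ephrin, was at 808 ± 89.2 CPM in a cluster led by Nox4 (1401 nuclei), against 657 ± 52.3 CPM in somatostatin-like nuclei. Epha3 was at 475.5 ± 91.9 CPM in a cluster led by Hs6st3 (166 nuclei), and Plxnc1 at 219 ± 23.9 CPM in a cluster led by Slc17a8 (2105 nuclei). In mural-like nuclei Epha2, an A-class receptor, had 11 UMIs, at 43.8 ± 44.4 CPM.

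By the order of protein-coding genes in RefSeq's gene table, Efna1, Efna3 and Efna4 are direct neighbours, as are Sema3a and Sema3d. Efna1 was highest in oligodendrocyte-like nuclei, while Efna3 and Efna4 reached 10 CPM in no tested class.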
